A study of Mus musculus with 8 samples.

Results

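Genes of the primary cilium and of intraflagellar transport were followed in RNA-seq counts of AML-12, an established mouse hepatocyte line derived from a mouse with a transforming growth factor alpha transgene. The members are 42 of the 21983 gene symbols in the deposited count table. They are the symbols that start with Ift or Bbs and a digit, and 20 cilium and Hedgehog genes given by name. The list was started by 3 of its genes, Evc, Evc2 and Dync2li1, which were chosen by their loss of reads in this same comparison. Their values are therefore a description, with no test. The other 39 members were taken by name, and the question was whether the loss extends to them. Overexpression of GM47544, a non-coding transcript, is what the labels give for 4 libraries, whose titles name no vector. They were set against 4 control libraries with pLKO.1, a lentiviral vector, and the genotype WT. All 8 were of cells kept in medium with fetal bovine serum. Whether replicates are separate cultures or clones is not stated. The p-values therefore cover only library-to-library spread, which may be technical. Transcripts of Gm47544 itself were not analysed here.

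The primary cilium is an antenna-like projection on the cell surface, built on a centriole that serves as its basal body. Intraflagellar transport carries its building blocks: IFT-B trains move outward with kinesin-2 motors, and IFT-A trains return with dynein-2. The BBSome moves membrane proteins in and out, and vertebrate Hedgehog signalling runs through the cilium. In liver, the bile duct cells carry primary cilia, while hepatocytes are generally regarded as lacking them. The count table records transcripts, not cilia. In bulk RNA, fewer cells that express a gene and less of its RNA in each cell cannot be told apart.

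The loss of reads did not extend to most other cilium genes, and the larger number of them had more reads in the overexpression libraries. Of the 39 members taken by name, 37 passed the filter on low counts. Of these 37, 24 (64.9%) rose, 3 (8.11%) fell and 10 did not pass (edgeR's quasi-likelihood test, Benjamini-Hochberg adjustment over all 11520 genes tested, called at an adjusted p under 0.05). Of all genes tested, 32.3% rose and 32.1% fell, and the counts in single complexes below are read beside these shares. The 37 members had a median log2 fold change (overexpression over control) of 0.70, against 0.00041 over all genes tested. At least 2-fold changes were called higher for 14 members and lower for 0, against 11.5% and 9.02% of all genes tested. The 4 overexpression values lay above all 4 control values for 23 of the 37 and below them for 2, against 28.5% and 27.5% of all genes. Bbs1 and Gli3 passed the filter in fewer than 4 control libraries; of the 35 members that passed it in every library, 22 rose and 3 fell.

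**Figure D1:**
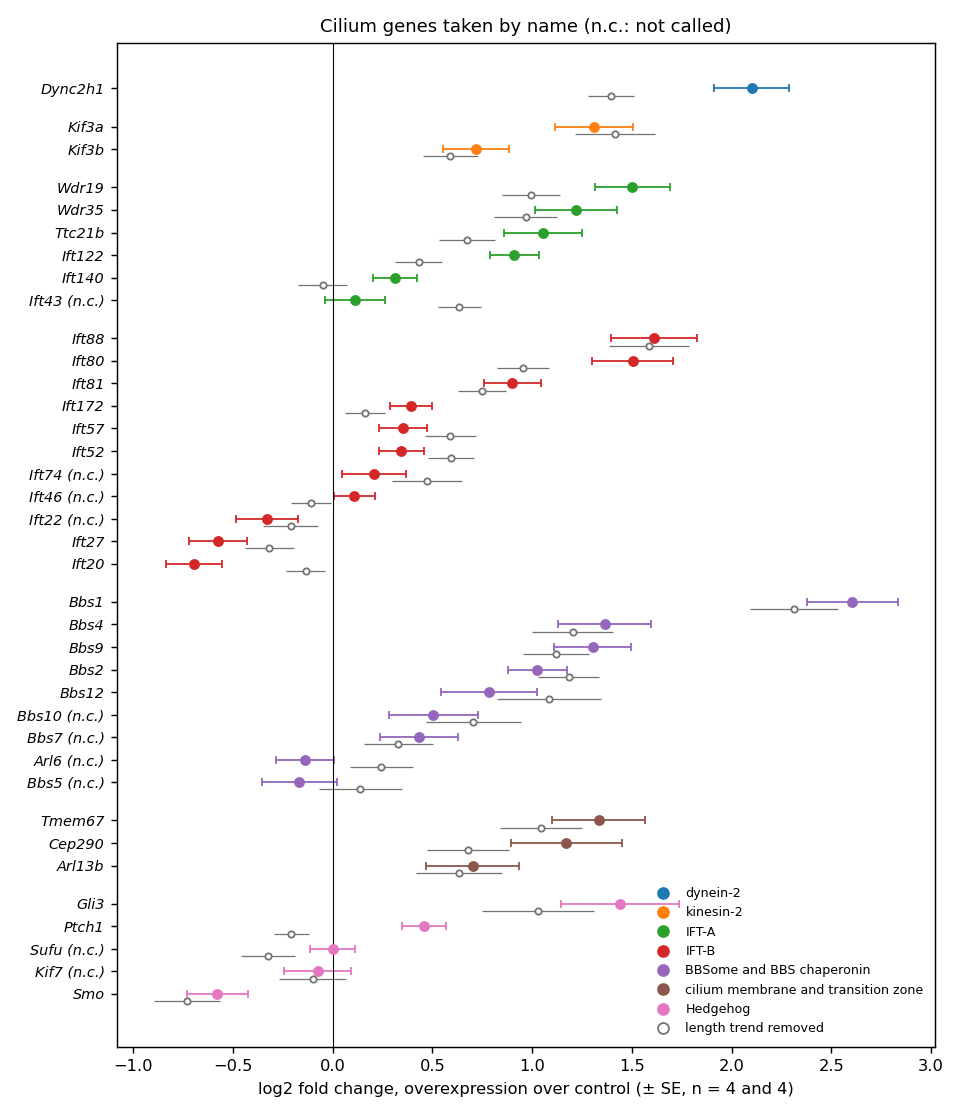
Log2 fold change of the 37 cilium genes taken by name and tested (x axis, overexpression over control), by role from top to bottom. Filled points with bars are the values ± SE from 4 libraries a group, open points the values with the trend on exon length removed, and n.c. marks the 10 genes not called. Most points lie to the right of 0, with Bbs1 at 2.60 and Dync2h1 at 2.10 farthest right, and Ift20, Smo and Ift27 to the left.

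Library totals were 11016907 to 17338310 counts in overexpression and 12256376 to 18965662 in control libraries. Control library 3 stood apart: on the first principal component of all tested genes, which held 82.5% of the variance, it lay at 22.2. The other controls lay at 49.98 to 60.7, and the overexpression libraries at -50.4 to -43.4. Among the 24 members that rose, control library 3 was the highest control for 21 (87.5%), against 73.5% of all genes that rose. The median over the 37 members of log2 CPM minus the control mean was 0.73, 0.72, 0.76 and 0.79 in overexpression libraries 1 to 4. In control libraries 1 to 4 it was -0.12, -0.046, 0.42 and -0.061, so control 3 lay between its group and the overexpression libraries. Without control library 3, 26 members rose and 4 fell, with a median of 0.90, against 38.7% of all genes tested in each direction.

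**Figure D2:**
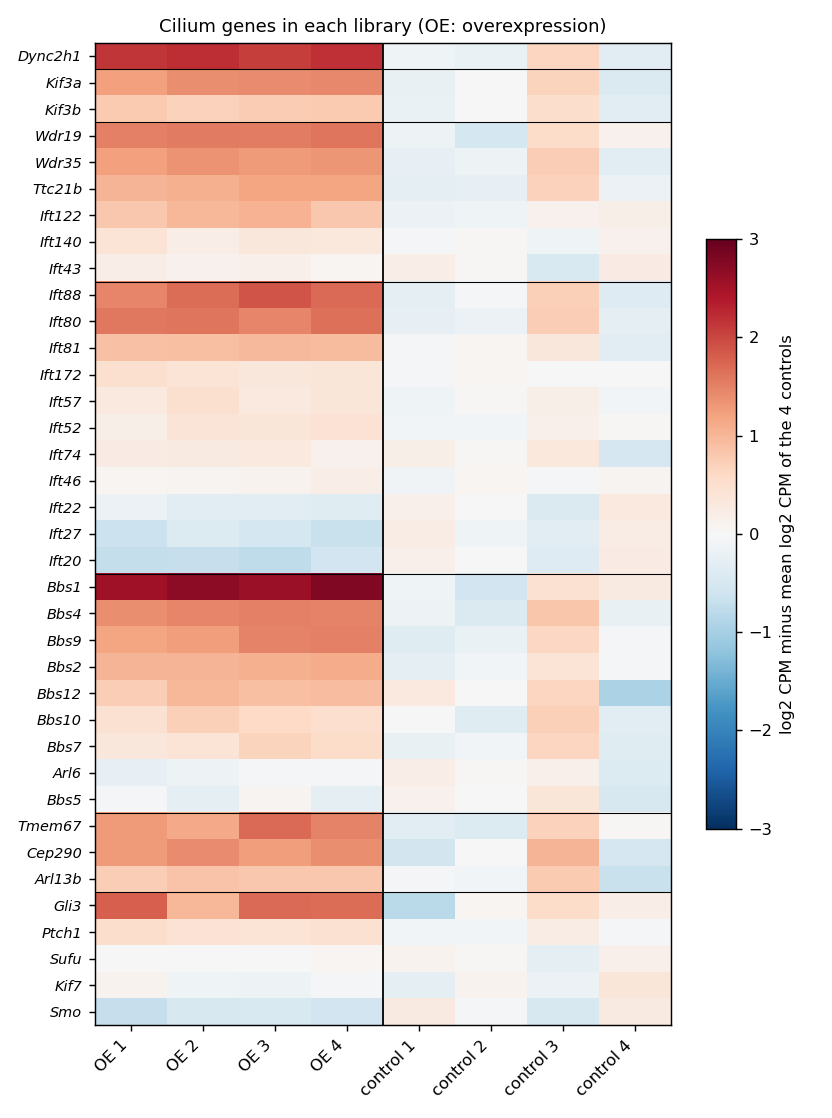
Each cell is the log2 CPM (counts scaled to library size) of a cilium gene in 1 library, minus the mean log2 CPM of the 4 controls. Overexpression libraries 1 to 4 are the left columns and control libraries 1 to 4 the right ones. Red is higher and blue lower than the control mean; control 3 is red in many rows where the overexpression libraries are red.

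Evc and Evc2 were the members with no overexpression reads at all. Evc and Evc2 encode a pair of membrane proteins at the base of the cilium that pass the Hedgehog signal on from Smo; in humans, mutations in either cause Ellis-van Creveld syndrome. Evc (ENSMUSG00000029122.11; chromosome 5, 37289098 to 37336894, minus strand, GRCm38) had 0, 0, 0 and 0 counts in overexpression libraries 1 to 4, and 48, 100, 60 and 60 counts in control libraries 1 to 4. Evc2 (chromosome 5, 37338499 to 37425055, plus strand) had 0 in each overexpression library, and 30, 68, 63 and 51 in controls. Both genes were thus read in every control and in no overexpression library. Against a floor of 3 counts over the overexpression group (0.0548 CPM), Evc was at least 82.9-fold and Evc2 at least 65.6-fold lower, which covers counting error only. In controls they were also among the weakest members per length, at 0.583 and 0.606 CPM per kilobase of exon.

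Dync2li1, the light intermediate chain of the dynein-2 motor, had 0, 0, 1 and 0 counts in overexpression libraries 1 to 4 and 26, 47, 42 and 38 in controls. Dync2li1 (ENSMUSG00000024253.9) lies on chromosome 17 from 84626496 to 84655588 on the plus strand. Controls had 142 times the overexpression level (95% exact interval 25.1 to 5643, counting error only). Of all genes tested, 11 (0.0955%) had at least 100 control counts and at most 1 overexpression count. These 3 members are among the 11, but they were chosen for this loss, so that is no result. None of the other 39 members met that description. At so small a share, a list of that size would seldom hold such a gene, so their absence carries no weight.

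**Figure D3:**
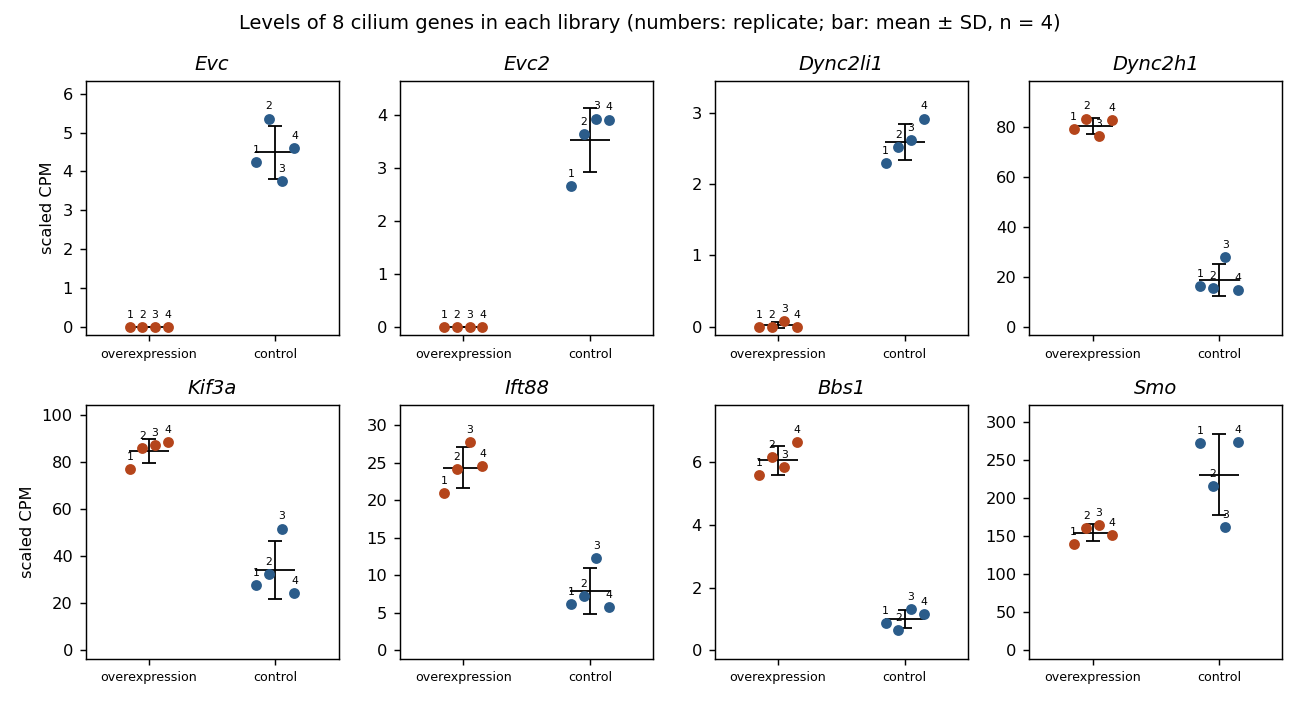
Scaled CPM (y axis, each from 0 on its own scale) of 8 cilium genes in the 4 overexpression libraries (left in each panel) and the 4 control libraries (right), numbered by replicate, with mean ± SD. Evc, Evc2 and Dync2li1 lie at or near 0 in overexpression libraries, while Dync2h1, Kif3a, Ift88 and Bbs1 lie above every control and Smo overlaps control 3.

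Around Evc and Evc2 few other genes had reads in either group. The 3 nearest genes with a row before the pair, Jakmip1, Gm1043 and Crmp1, had 0 overexpression counts and 0, 1 and 0 control counts. The 3 after it, Stk32b, Cytl1 and Msx1, had 0 overexpression counts and 12, 0 and 2 control counts. For Stk32b, a kinase gene, that is at least 3.71-fold lower against the floor of 3 counts. The nearest genes that could be tested were Wfs1 (log2 fold change -0.06, SE 0.15, not called) and Stx18 (-0.40, SE 0.11; edgeR, adjusted p = 0.00755), with 1661 and 991 overexpression counts against 1855 and 1404 control counts. The nearest testable genes of Dync2li1 were likewise read in both groups: Thada and Lrpprc had log2 fold changes of 0.12 (SE 0.15) and 0.007 (SE 0.17), neither called. With the length trend removed Wfs1 stayed uncalled and Thada and Lrpprc were called lower, at -0.40 and -0.33. Zfp36l2, beyond Thada and an RNA-binding protein gene, had 13013 overexpression and 10796 control counts and was called higher (log2 fold change 0.37, SE 0.12; edgeR, adjusted p = 0.0129; 0.000107 to 0.0509 over 16 alternatives), with overlapping groups. Plekhh2, next to Dync2li1 on the Thada side, had 3 overexpression and 32 control counts, a control level 9.9 times as high (95% exact interval 3.1 to 50.5). Abcg5 and Abcg8, on its other side, had 18 and 12 overexpression against 23 and 26 control counts.

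The promoter windows of 4 members are shown because they belong to the lost pair and to the members with the largest increases. Evc and Evc2 are transcribed away from each other, with RefSeq start sites 1597 bases apart, so their windows do not overlap. Each window holds 250 bases before and 50 bases from the start site, 5′ to 3′ on the gene's strand (RefSeq, GRCm38.p6). Capitals mark GTTGCC or its reverse complement GGCAAC, the core of the motif bound by RFX factors, some of which are known activators of cilium genes.
Evc (chr5:37336832-37337131, minus strand): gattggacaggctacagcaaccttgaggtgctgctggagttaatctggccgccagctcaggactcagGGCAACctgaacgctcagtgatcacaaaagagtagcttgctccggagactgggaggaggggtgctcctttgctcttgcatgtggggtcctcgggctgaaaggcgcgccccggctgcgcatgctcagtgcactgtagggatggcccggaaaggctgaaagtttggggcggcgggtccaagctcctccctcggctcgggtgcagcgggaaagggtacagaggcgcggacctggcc
Evc2 (chr5:37338228-37338527, plus strand): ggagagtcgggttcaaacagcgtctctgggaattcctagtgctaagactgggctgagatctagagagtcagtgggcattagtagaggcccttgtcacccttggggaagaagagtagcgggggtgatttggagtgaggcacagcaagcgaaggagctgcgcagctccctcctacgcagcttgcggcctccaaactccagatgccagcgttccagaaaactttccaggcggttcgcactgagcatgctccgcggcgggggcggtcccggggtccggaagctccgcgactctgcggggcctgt
Dync2h1 (chr9:7177009-7177308, minus strand): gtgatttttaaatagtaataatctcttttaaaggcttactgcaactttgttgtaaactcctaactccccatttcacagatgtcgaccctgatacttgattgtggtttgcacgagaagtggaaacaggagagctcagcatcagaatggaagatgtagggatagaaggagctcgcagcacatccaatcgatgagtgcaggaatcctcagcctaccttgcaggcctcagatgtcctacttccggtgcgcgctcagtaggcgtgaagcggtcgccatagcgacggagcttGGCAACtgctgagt
Bbs1 (chr19:4906578-4906877, minus strand): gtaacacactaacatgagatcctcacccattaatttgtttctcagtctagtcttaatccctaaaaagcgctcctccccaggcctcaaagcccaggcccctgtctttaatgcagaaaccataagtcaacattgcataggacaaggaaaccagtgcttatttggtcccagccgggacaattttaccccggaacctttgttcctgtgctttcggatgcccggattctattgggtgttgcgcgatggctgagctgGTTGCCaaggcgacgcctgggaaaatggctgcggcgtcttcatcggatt
The Evc match starts 183 bases before the start site, and those of Dync2h1 and Bbs1 start 36 bases and 1 base after it. The Evc2 window holds no match. A window was found for 36 of the 42 members. GTTGCC on either strand was found for 13 of these 36 genes (36.1%), against 12.5% of all 32851 promoter windows of the same length. Of the tested members taken by name, 9 of 12 with a match rose, and 11 of 21 without one. An exact match to a longer RFX palindrome was found only for Bbs7 among the members and in 0.451% of all windows. Looser forms of this RFX site (the X-box) were not searched, so a window without the palindrome may still hold an X-box. The GLI motif GACCACCCA was found for 0 members and in 0.253% of all windows. The palindrome and GTTGCC can overlap, both strands were searched, and a match is no evidence of binding.

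The partner of Dync2li1 in the same motor rose. Dync2h1, the heavy chain that holds the dynein-2 motor, had 78.9, 83.2, 76.1 and 82.6 CPM in overexpression libraries 1 to 4, against 16.5, 15.6, 28.1 and 14.5 CPM in controls 1 to 4. Every overexpression value was above every control, and the log2 fold change was 2.10 (SE 0.19; edgeR, adjusted p = 2.23e-06). It was 1.40 with the trend on exon length removed. The other subunits, taken from a list of further cilium genes, were called in both directions. In the list that holds them and other kinesin-2 genes, 3 of 7 tested rose and 3 fell, and with the length trend removed 2 rose (Wdr60 and Kifap3) and 1 fell (Tctex1d2). The shared dynein light chains Dynlrb1 and Dynll1 lost their calls there, Dynlrb1 with a log2 fold change of -0.77 and of -0.02 with the trend removed. The intermediate chain Wdr60 rose to 36.9 ± 2.62 CPM, against 16.7 ± 4.59 CPM in controls (SD, n = 4 each). The light chain Tctex1d2 fell to 7.15 ± 1.05 CPM in overexpression libraries, against 14.9 ± 0.984 CPM in controls (SD, n = 4 each; log2 fold change -1.05, SE 0.15). The intermediate chain Wdr34 had 38.2 ± 2.04 and 42.5 ± 11.7 CPM in overexpression and control libraries (SD, n = 4 each) and was not called. Without control library 3 it was called lower (log2 fold change -0.33; edgeR, adjusted p = 0.00944; 0.00944 to 0.956 over 16 alternatives).

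All 3 subunits of the outward kinesin-2 motor rose. Kif3a, a motor subunit, had 77.3, 86.2, 87.5 and 88.5 CPM in overexpression libraries 1 to 4, against 27.9, 32.7, 51.9 and 24.3 CPM in controls. The groups did not overlap, and the log2 fold change was 1.31 (SE 0.20; edgeR, adjusted p = 0.000102). Its partner Kif3b averaged 96.5 ± 3.00 CPM in overexpression and 58.5 ± 16.7 CPM in control libraries (SD, n = 4 each; log2 fold change 0.72, SE 0.16). Kifap3, the adaptor that joins them and no member of the list, had a log2 fold change of 0.92 (SE 0.16; edgeR, adjusted p = 0.000276). Kinesin-2 also carries cargo outside cilia.

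In IFT-A, the return train, 5 of 6 subunits rose and 0 fell, where 32.3% and 32.1% of all genes tested did. Wdr19 (IFT144) had 41.0, 42.6, 41.9 and 43.4 CPM in overexpression libraries 1 to 4, against 12.9, 9.92, 20.99 and 15.8 CPM in controls (log2 fold change 1.502, SE 0.19; edgeR, adjusted p = 2.82e-05). Wdr35 (IFT121) had 66.1, 71.2, 68.0 and 70.6 CPM, against 23.7, 25.2, 46.9 and 22.2 CPM in controls (log2 fold change 1.22, SE 0.20). Ttc21b (IFT139) had 61.0, 62.4, 68.2 and 68.2 CPM, against 24.8, 25.4, 48.3 and 26.4 CPM in controls (log2 fold change 1.05, SE 0.19). In these 3 genes control 3 was the highest control and still lay below every overexpression library. Ift122 rose with a log2 fold change of 0.91 (SE 0.12; edgeR, adjusted p = 4.33e-05). With the length trend removed the log2 fold changes were 0.99 for Wdr19, 0.67 for Ttc21b and 0.43 for Ift122, all still called. Ift140 rose by a smaller step, 0.31 (SE 0.11; edgeR, adjusted p = 0.0244), and with the length trend removed its value was -0.049 and no longer called (adjusted p = 0.748; 0.00296 to 0.748 over 16 alternatives). The Ift140 call was also lost with the replicate block (adjusted p = 0.069), with no filter on low counts, and without overexpression library 1, 3 or 4 or control library 1 or 2 (0.0735, 0.0681, 0.0617, 0.0614 and 0.059). Ift43 had 28.6 ± 1.07 CPM in overexpression and 26.5 ± 5.38 CPM in control libraries (SD, n = 4 each) and was not called, but was called higher with the length trend removed (log2 fold change 0.64; edgeR, adjusted p = 0.000271; 0.000271 to 0.91 over 16 alternatives).

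IFT-B, the outward train, was mixed: 6 of 11 named members rose, 2 fell and 3 were not called. Of all genes tested, 32.3% rose and 32.1% fell. Ift88, whose loss in mice abolishes cilia, had 20.9, 24.2, 27.7 and 24.6 CPM in overexpression libraries 1 to 4, against 6.19, 7.29, 12.4 and 5.76 CPM in controls. The groups did not overlap (log2 fold change 1.61, SE 0.21; edgeR, adjusted p = 4.27e-05), and removing the length trend left 1.59. Ift80, a peripheral subunit, had 95.0, 96.0, 88.2 and 99.3 CPM, against 26.6, 28.1, 52.6 and 25.7 CPM in controls (log2 fold change 1.51, SE 0.20, and 0.95 with the length trend removed). Ift81, which binds tubulin with Ift74, rose with a log2 fold change of 0.90 (SE 0.14). Ift74 had 22.6 ± 1.13 CPM in overexpression and 19.6 ± 4.42 CPM in control libraries (SD, n = 4 each) and was called only with the length trend removed (log2 fold change 0.47; edgeR, adjusted p = 0.0307; 0.0307 to 0.676 over 16 alternatives).

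Smaller steps were found for other IFT-B subunits, in both directions. Ift172, Ift57 and Ift52 had log2 fold changes of 0.39 (SE 0.11), 0.35 (SE 0.12) and 0.34 (SE 0.11), all called. With the length trend removed the Ift172 call was lost (log2 fold change 0.16; edgeR, adjusted p = 0.178; 0.000439 to 0.178 over 16 alternatives). The Ift52 call was lost without overexpression library 2 or 4 or control library 1 or 2 (edgeR, adjusted p = 0.0523, 0.0604, 0.0506 and 0.0592; 8.88e-05 to 0.0604 over 16 alternatives). The Ift57 call was lost without the same libraries (adjusted p = 0.0816, 0.0541, 0.0647 and 0.0501; 0.000581 to 0.0816 over 16 alternatives), and with no filter on low counts. Ift20, which also works at the Golgi, fell to 33.9, 34.3, 32.8 and 37.1 CPM in overexpression libraries 1 to 4, against 60.9, 55.4, 42.1 and 65.3 CPM in controls. Its groups did not overlap (log2 fold change -0.70, SE 0.14; edgeR, adjusted p = 0.000808), but with the length trend removed it was -0.13 and not called (adjusted p = 0.254; 5.96e-08 to 0.254 over 16 alternatives). Ift27, a small GTPase that links IFT-B to the BBSome, had 16.3, 19.01, 17.7 and 15.9 CPM in overexpression libraries, against 29.6, 23.3, 20.5 and 29.4 CPM in controls. The Ift27 log2 fold change was -0.57 (SE 0.15; edgeR, adjusted p = 0.00412), called in each of 16 alternatives, and was -0.32 with the length trend removed. Ift22 and Ift46 were not called, at -0.33 (SE 0.15) and 0.11 (SE 0.10). Ift22 was called lower without control library 3 (log2 fold change -0.48; edgeR, adjusted p = 0.000484; 0.000484 to 0.238 over 16 alternatives) and with limma-voom. Of 6 tested IFT-B subunits with other symbols, Ttc26 and Ttc30b rose, with log2 fold changes of 0.95 and 0.59, and 0 fell. The Ttc30b groups overlapped, and its adjusted p reached 0.0629 over 16 alternatives. Hspb11 and Cluap1 were called higher too, 4 of the 6, with the length trend removed.

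Among the genes of Bardet-Biedl syndrome, a human ciliopathy, 5 of 9 rose and 0 fell, where 32.3% and 32.1% of all genes tested did. Bbs1, a BBSome subunit that binds the GTPase Arl6, had 5.57, 6.17, 5.84 and 6.63 CPM in overexpression libraries 1 to 4, against 0.885, 0.644, 1.31 and 1.15 CPM in controls. This was the largest change among the 37 members (log2 fold change 2.60, SE 0.23; edgeR, adjusted p = 2.04e-06), and its control counts were low, at 10, 12, 21 and 15. Bbs4, which completes the BBSome, had 15.6, 16.3, 16.8 and 16.8 CPM, against 5.31, 4.397, 10.6 and 5.07 CPM in controls (log2 fold change 1.36, SE 0.23). Bbs9 had 28.7, 30.2, 35.3 and 35.9 CPM, against 9.82, 11.05, 19.5 and 12.1 CPM in controls (log2 fold change 1.30, SE 0.19). Bbs2, which pairs with Bbs7 in the complex, had 33.9, 33.9, 34.8 and 36.1 CPM, against 13.7, 15.8, 22.3 and 16.1 CPM in controls (log2 fold change 1.03, SE 0.15). None of these 4 genes overlapped between the groups. Bbs7 itself had 32.8, 34.2, 40.8 and 37.7 CPM in overexpression libraries and 22.3, 24.5, 40.7 and 20.0 CPM in controls, so that control 3 overlapped. It was not called (log2 fold change 0.43, SE 0.20; edgeR, adjusted p = 0.069) but was without control library 3 (0.67; adjusted p = 2.18e-05; 2.18e-05 to 0.184 over 16 alternatives).

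Of the chaperonin-like members, which help assemble the BBSome, Bbs12 rose and Bbs10 was not called. Bbs12 rose to 16.7 ± 1.29 CPM in overexpression libraries, against 9.67 ± 3.89 CPM in controls (SD, n = 4 each; log2 fold change 0.78, SE 0.24; edgeR, adjusted p = 0.0122). Bbs10 had 10.1 ± 0.83 and 7.14 ± 2.75 CPM and was not called (edgeR, adjusted p = 0.0606; 0.000128 to 0.186 over 16 alternatives), but was called without control library 3, with the length trend removed and in 4 other alternatives. Arl6, the GTPase that recruits the BBSome to membranes, had 19.4 ± 1.26 CPM in overexpression and 21.4 ± 3.77 CPM in control libraries, and Bbs5 had 6.72 ± 0.867 and 7.5 ± 1.76 CPM (SD, n = 4 each). Neither was called, with log2 fold changes of -0.14 (SE 0.15) and -0.17 (SE 0.19). Of 4 further genes of this machinery, Ttc8, Mkks and Lztfl1 rose and Bbip1 fell, with log2 fold changes of 0.66, 0.66, 0.43 and -0.41. Lztfl1 was at -0.09 and not called with the length trend removed.

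The 3 members of the ciliary membrane and transition zone, the gate at the cilium's base, all rose. Tmem67, a membrane protein of the gate, had 9.69, 8.81, 12.8 and 11.2 CPM in overexpression libraries 1 to 4, against 3.18, 3.00, 6.44 and 4.07 CPM in controls (log2 fold change 1.33, SE 0.23). Cep290, which ties the gate to the microtubules, had 42.6, 47.1, 42.1 and 46.5 CPM, against 12.1, 18.0, 36.1 and 12.5 CPM in controls (log2 fold change 1.17, SE 0.28; edgeR, adjusted p = 0.00266), and its log2 fold change was 0.68 with the length trend removed. Control 3 came closest to the overexpression libraries in both. Arl13b, a GTPase of the ciliary membrane, had 17.3 ± 0.525 CPM in overexpression and 10.6 ± 4.63 CPM in control libraries (SD, n = 4 each; log2 fold change 0.70, SE 0.23; edgeR, adjusted p = 0.0185). Its groups overlapped through control 3 at 17.1 CPM, and its call was lost without control library 1 or 2 (adjusted p = 0.0542 and 0.055; 2.57e-06 to 0.055 over 16 alternatives).

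The Hedgehog members did not move together. Smo, the receptor-like transducer, fell to 140.3, 162, 165 and 152 CPM in overexpression libraries 1 to 4, against 272, 216, 163 and 274 CPM in controls (log2 fold change -0.58, SE 0.15; edgeR, adjusted p = 0.00548). Control 3 lay inside the range of the overexpression libraries. Smo was the highest member per length in both groups, at 27.5 and 41.1 CPM per kilobase of exon. Ptch1, the Hedgehog receptor that holds Smo inactive, had 95.5, 88.9, 87.8 and 91.0 CPM in overexpression libraries, against 61.8, 61.8, 77.4 and 63.4 CPM in controls. Its log2 fold change was 0.46 (SE 0.11; edgeR, adjusted p = 0.00287), and -0.21 with the length trend removed, no longer called (adjusted p = 0.0582; 1.53e-06 to 0.0582 over 16 alternatives). Sufu, an inhibitor of the GLI factors, had 94.7 ± 1.68 and 94.7 ± 11.7 CPM, and the ciliary tip kinesin Kif7 had 7.97 ± 0.694 and 8.37 ± 1.69 CPM in overexpression and control libraries (SD, n = 4 each), and neither was called.

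The transcription factors at the end of the Hedgehog pathway had few reads. Gli3, mostly a repressor, had 3.26, 1.87, 3.05 and 2.98 CPM in overexpression libraries 1 to 4, against 0.531, 0.965, 1.37 and 1.08 CPM in controls (log2 fold change 1.44, SE 0.29; edgeR, adjusted p = 0.000963). Gli1, itself a transcribed target of the pathway, had 3, 5, 1 and 7 counts in overexpression libraries and 0, 7, 8 and 7 in controls. Controls had 1.28 times the overexpression level (95% exact interval 0.64 to 2.6), so no Gli1 difference was detectable at this depth. Gli2, mainly an activator, had 3, 4, 0 and 5 counts in overexpression libraries and 0, 0, 0 and 0 in controls, at least 4.31-fold higher against 3 counts over the control group. Gli1 and Gli2 are the 2 members that did not pass the filter. Of the partners of Evc and Evc2 at the cilium base, Iqce had 34.9 ± 2.20 and 33.6 ± 3.62 CPM in overexpression and control libraries and was not called (log2 fold change 0.06, SE 0.12), though with the length trend removed it was called lower (-0.54; edgeR, adjusted p = 0.00723; 0.00723 to 0.963 over 16 alternatives). The other partner, Efcab7, was listed at 0 in all 8 libraries. So were Plk4 and Nek2, genes used by dividing cells, and a 0 in all libraries is therefore not read as lack of the transcript.

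Exon length moved with the fold changes of all genes, and the members are long. The tested members had a median exon length of 5635 bases, against 4463 bases over all tested genes. In 5 equal classes of exon length, all tested genes had median changes of -0.53, -0.22, -0.0018, 0.18 and 0.49 (log2) from the shortest to the longest class. The members in these classes, 5, 8, 3, 9 and 12 genes, had medians of -0.14, 0.35, 0.70, 0.72 and 1.25. In each class the member median was above that of all genes. Of the 12 members in the longest class, 11 rose, where 59.5% of all genes in it rose. With the trend on length removed within each library, 24 of the 37 members rose and 2 fell, against 29.4% and 31.1% of all genes tested, and their median log2 fold change was 0.63 (all genes -0.012). Of the 24 genes that rose, 21 were called higher both with and without that step. Of the 3 that fell, Ift27 and Smo were called lower both ways. The part of exon length in the results was not tested further.

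**Figure D4:**
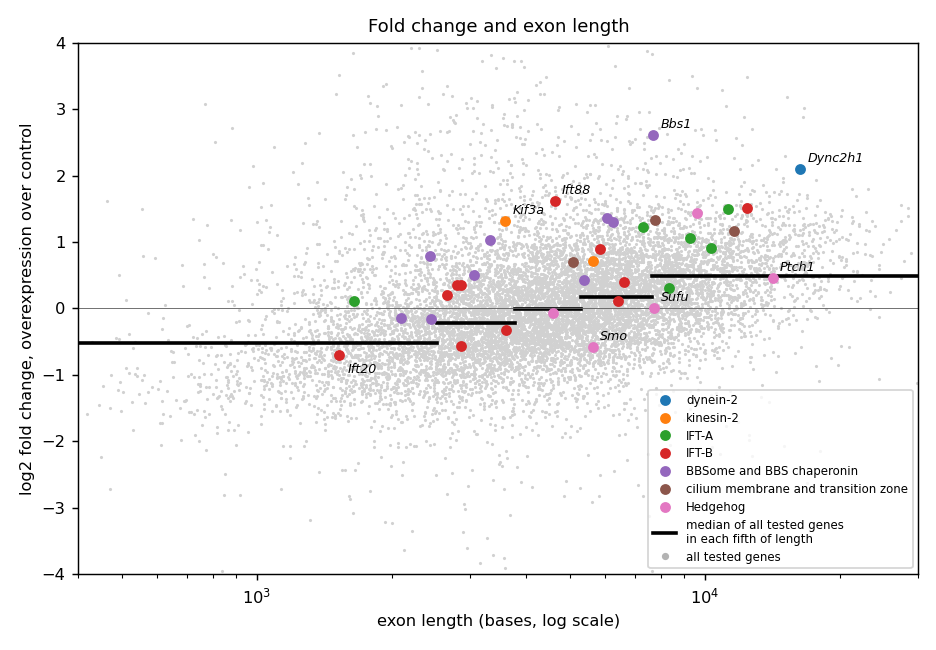
Log2 fold change (y axis, overexpression over control) against exon length in bases (x axis, log scale) for all tested genes (grey) and the 37 cilium members (coloured by role). Black bars are medians of all tested genes in 5 equal classes of length and climb from -0.53 to 0.49; most members lie above the bar of their class. Some grey points lie outside the axes.

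Among further cilium genes, from 10 lists, more rose than fell. Of 97 tested genes in these lists, 48 (49.5%) rose, 17 (17.5%) fell and 32 were not called, with a median log2 fold change of 0.33. Of all genes tested, 32.3% rose and 32.1% fell, and the shares in single lists are read beside these. With the length trend removed, 45 rose and 14 fell, where 29.4% and 31.1% of all genes did. Basal body and distal appendage genes rose for 12 of 18 and fell for 0 (8 and 1 with the length trend removed). Among them Cep97, which caps the mother centriole, and Pcm1, the scaffold of centriolar satellites, had log2 fold changes of 1.43 (SE 0.21) and 1.12 (SE 0.19). Transition zone genes rose for 10 of 19 and fell for 4, with Rpgrip1l and Rpgr at 1.39 (SE 0.22) and 1.36 (SE 0.20), and with Tctn1 and Invs at 1.00 and 1.06. With the length trend removed 10 of these 19 genes rose and 0 fell, with Rpgrip1l at 0.75, Rpgr at 1.10, Tctn1 at 0.65 and Invs at 0.54.

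In the list of RFX, FOXJ1 and related transcription factors, 7 of 8 tested rose and 0 fell (6 and 0 with the length trend removed). The RFX genes were listed by family name, whether or not each acts on cilium genes. Rfx3, an activator of cilium genes, had 46.4, 50.2, 47.4 and 48.9 CPM in overexpression libraries 1 to 4, against 15.8, 14.4, 21.9 and 14.1 CPM in controls (log2 fold change 1.54, SE 0.15; edgeR, adjusted p = 4.12e-06). The groups did not overlap. Rfx7, Glis3 and Glis2 had log2 fold changes of 1.47, 0.76 and 0.57, and of 0.79, 0.38 and 0.57 with the length trend removed. Ciliary GTPases and membrane cargo rose for 5 of 17 and fell for 5, with Pkhd1, the fibrocystin gene of bile duct and kidney cilia, at 237 ± 7.54 CPM in overexpression and 70.4 ± 18.2 CPM in control libraries (SD, n = 4 each), and Tulp3, an IFT-A adaptor, at a log2 fold change of -0.60. Pkhd1 was at 1.11 and Tulp3 at -1.04 with the length trend removed. The 5 of 17 in each direction lie near the shares of all genes. Some genes on the list of cilium disassembly also act in mitosis. Of 7 tested, 2 rose and 3 fell, near the shares of all genes (1 and 4 with the length trend removed). Aurka and Plk1, kinases of both processes, and Kifc1 had log2 fold changes of -1.08 (SE 0.12), -1.24 (SE 0.14) and -1.39 (SE 0.15). Of the 2 disassembly genes that rose, Nedd9 was at 0.43 (SE 0.12), and at 0.23 and still called with the length trend removed. In the list of Hedgehog ligands, coreceptors, EVC partners and other pathway genes, 2 of 7 tested rose and 0 fell: Cdon, a coreceptor, at 1.05 (SE 0.13) and the kinase Stk36 at 1.03 (SE 0.14). The ligands Ihh and Dhh were not called, at -0.0018 (SE 0.24) and -0.26 (SE 0.14), though Dhh was called lower without control library 3 (-0.38; edgeR, adjusted p = 0.00255; 0.00255 to 0.377 over 16 alternatives). Disp1, Spop and Iqce were not called either. Spop was called higher with the length trend removed (log2 fold change 0.44; edgeR, adjusted p = 0.0324). It was also called higher without control library 3 (0.40; edgeR, adjusted p = 0.000394; 0.000192 to 0.39 over 16 alternatives). With the length trend removed 3 of these 7 genes rose and 1 fell. Genes of motile cilia were mostly too weak to test: of 4 tested, Ccdc39 and Dnaic2 rose (2.59 and 0.86) and Hydin fell (-1.09, and -1.86 with the length trend removed). Ccdc39 passed the filter in every overexpression library but in only 3 control libraries, with 3, 23, 21 and 15 counts in controls 1 to 4.

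**Figure D5:**
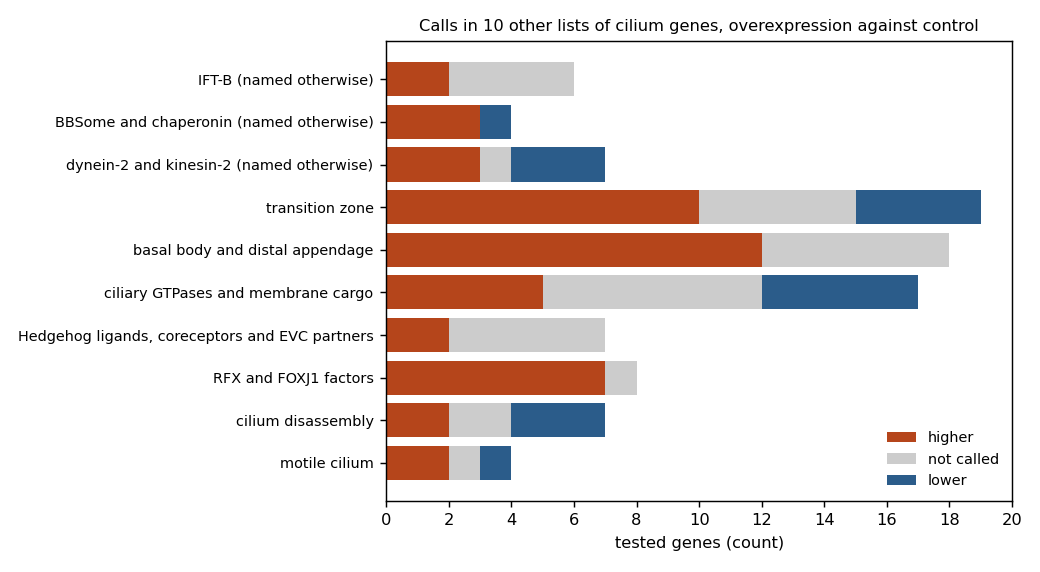
Number of tested genes called higher (left part of each bar), not called (middle) and called lower (right part) in overexpression against control libraries, for 10 lists of cilium genes outside the 42 members. Basal body genes (12 higher, 0 lower) and the RFX and FOXJ1 list (7 higher, 0 lower) hold no gene called lower.

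Marker genes of several liver cell types were read, whether or not those cells bear cilia. Their calls are read beside the shares of all genes tested, of which 32.3% rose and 32.1% fell. Of 6 tested bile duct (cholangiocyte) markers, Spp1 rose and Sox9, Slc4a2 and Krt19 fell (Krt19 was at 0.07 and not called with the length trend removed), and the summed level of all 8 was 4769 to 5389 CPM in overexpression and 3083 to 4526 CPM in control libraries. Spp1 alone set that direction: without it, left out after its values were seen, the other 7 summed to 2171 to 2565 CPM in overexpression and 2116 to 3772 CPM in control libraries, ranges that overlap. Epcam had 0 overexpression counts and 1 control count, and Cftr had 2 and 7, so both were near absent in either group. Of 8 tested hepatocyte markers 3 rose (Alb, Apob and Fgb) and 3 fell (Ttr, Serpina1a and Trf), near the shares of all genes. Fgb passed the filter in 0 control libraries and Trf in 1 overexpression library, so each was tested through the group where it is high. Apob and Trf were not called with the length trend removed. The summed level of the hepatocyte markers was 1108 to 1153 CPM in overexpression and 1734 to 2177 CPM in control libraries. Ttr alone set that direction: without it, again left out after its values were seen, the other 9 summed to 839.8 to 873 CPM in overexpression and 581 to 679 CPM in control libraries. Asgr1 had 0 overexpression counts and 1 control count. Fibroblast, endothelial and macrophage markers summed to 9.86 to 17.4, 1.37 to 2.18 and 9.94 to 13.2 CPM in overexpression libraries, and to 3.69 to 5.68, 0.12 to 0.54 and 26.8 to 32.7 CPM in controls. In the group with the higher sum, 1 gene made up most of it. These were Des (11.3 CPM in overexpression and 3.95 CPM in control libraries), Cdh5 (1.29 and 0.117 CPM) and Csf1r (10.2 and 27.1 CPM). Cdh5 passed the filter in 0 control libraries. The other tested genes of these lists were Col1a1, which rose, and Cd68, which was not called. Lrat, Col3a1, Lum, Adgre1 and Clec4f were listed at 0 in all 8 libraries. The part of these marker changes, of the disassembly genes and of control library 3 in the cilium results was not tested.

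Some members share exon bases with another annotated gene, and no source used here states how strand was handled in counting. Cep290 shares 881 of 11617 exon bases (7.58%) with 4930430F08Rik on the other strand, Bbs4 194 bases with Adpgk, Tmem67 289 bases with Rbm12b2, and Bbs12 32 bases with Cetn4, so a part of their reads is uncertain. Kif7 and Gli1 share 51 and 62 bases with Ticrr and Arhgap9, and Kif7 shares 877 (19.1%) with 9330171B17Rik, which has no row in the count table. No exon of Evc, Evc2, Dync2li1, Dync2h1 or Bbs1 overlapped an exon of another annotated gene.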

How the data were processed

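RNA-seq counts of 8 AML-12 libraries, 4 overexpressing GM47544 and 4 with pLKO.1, were analysed. Groups and replicate numbers came from the sample titles. The authors deposited raw counts, whole numbers with no normalization, for 21983 gene symbols in 8 columns. FastQC, STAR, HTSeq and mm10 are named in the submitters' processing notes. Tool versions, gene annotation and strandedness: not given in the sources used here. Libraries were made from Trizol RNA with a kit of the NEBNext Ultra line, per the labels' protocols.

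The 42 members and the lists were chosen with earlier results of these data known. Members with an adjusted p under 0.05 and at least a 2-fold change were given in every library, and up to 4 called genes of each further list and the 3 nearest genes on each side of Evc-Evc2 and Dync2li1 were named; Iqce, Wdr34, Kif3b Efcab7 and the other members below that change are named for their complex. GENCODE M21 (GRCm38, which is mm10) matched 21926 symbols and gave coordinates and exon length (the union of exons). Counts were fitted in R 4.3.3 with edgeR 4.0.16: 11520 genes passed filterByExpr (minimum count 10), libraries were scaled by TMM, and a two-sided quasi-likelihood test compared the groups with no other covariate, adjusted by Benjamini-Hochberg. Standard errors are the log2 fold change over the square root of F. CPM values use the scaled library sizes. Floors are 3 counts over a group; intervals are exact 95% binomial and, like floors, cover counting error only. The length step subtracted a lowess trend (span 0.3) of log2 CPM on log2 exon length from each library. Alternatives used DESeq2 1.42.0 and limma 3.58.1, other scalings and filters, a replicate block and leaving out each library. Library pairs of a group differed by a chi-square per gene of 2.41 to 102, so none matched within counting noise. On simulated counts of overexpression against control (11452 genes, 50 changed at each fold) the test recovered 34% of 1.5-fold, 88% of 2-fold and 100% of 4-fold and 8-fold changes. There were 17 false calls among 178, a share above the 0.05 threshold. The simulation changed few genes and held no deviating control library and no length trend. It therefore does not give recovery or error in these data. Figures were drawn with matplotlib 3.10.9.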

Additional observations from a re-analysis of the deposited data

Results flagged for a closer look

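A library far from the other 3 of its group, by Dixon's gap ratio, was found for 7 of 77 groups examined; chance gives about 1 in 20. In 6 of them it was control library 3, above the other controls: Ttc21b (48.3 CPM against 24.8 to 26.4, ratio 0.930), Ift80 (52.6 against 25.7 to 28.1, ratio 0.912), Ptch1 (77.4 against 61.8 to 63.4, ratio 0.896), Wdr35 (46.9 against 22.2 to 25.2, ratio 0.878), Dync2h1 (28.1 against 14.5 to 16.5, ratio 0.857) and Bbs4 (10.6 against 4.397 to 5.31, ratio 0.852). Each of these 6 genes rose in overexpression libraries. The other was Sufu in overexpression library 4, at 97.3 CPM against 93.8 to 94.0 (ratio 0.952), a gene that was not called.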

How the results depend on the processing

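The count of members that rose, 24, lay between 20 and 26 over 16 alternatives, and that of members that fell, 3, between 2 and 4. The counts over the 97 further cilium genes also stayed within 1.5 times. The median log2 fold change of the members, 0.70, ranged from 0.51 without control library 4 to 0.90 without control library 3 when 1 library was left out. Of the 37 members, 25 kept their call, or stayed uncalled, in every one of 16 alternatives that tested them. Among the 25, 18 of the 24 that rose and 2 of the 3 that fell (Ift27 and Smo) kept both direction and call. The rest of the 25, Ift46, Bbs5, Arl6, Sufu and Kif7, were not called in any alternative, and their log2 fold changes took both signs. Of the called members, Ift140 and Ptch1 turned with the trend on exon length removed, to -0.049 and -0.21, and neither was called there. The cause was not tested. Same-numbered libraries of both groups did not deviate together (correlations of 0.0227, -0.011, -0.0773 and -0.119 for numbers 1 to 4). Whether they were handled together is not stated, and such correlations cannot decide it. With the replicate block, 25 members rose and 3 fell, with a median of 0.76, and 47 further cilium genes rose and 16 fell. Scaling by library totals alone moved the median of all genes to 0.13 and that of the members to 0.81. Depth limits Gli1, Gli2 and the floors under Evc and Evc2.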
